A study of Homo sapiens with 2 samples.

Results

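ERα, the oestrogen receptor encoded by ESR1, is a transcription factor that oestradiol activates, and in breast cancer cells it binds mostly at enhancers far from gene starts. MYC encodes a transcription factor that drives cell growth and division, and oestrogen is known to raise its transcript in ER-positive breast cancer cells. PVT1, the next gene past MYC, gives a long non-coding RNA and hosts several microRNAs. It is often gained together with MYC in tumours, and its body holds enhancers that have been described to act on MYC. The stretch before MYC is a gene desert known for variants linked to the risk of several cancers.

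The peaks described here are the 29 of 12688 listed ERα peaks with a centre between bases 128000000 and 129400000 of chromosome 8 (hg19). Membership rests on position alone, in a region chosen with earlier results of these data known. Within these 1.4 Mb, MYC starts at 128748315 on the plus strand and PVT1 runs from 128806779 to 129113499, with 58.5 kb from 1 start to the other. In the GRCh38.p14 gene table of RefSeq, used for names and order only, PVT1 directly follows MYC, and the nearest protein-coding neighbours of MYC are POU5F1B before it and GSDMC after it.

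The list compares 1 ERα immunoprecipitation library with 1 input DNA library of T47D, an established ERα-positive human breast cancer cell line. The T47D cells behind both libraries were kept without steroids for 48 h and then received 10 nM 17β-estradiol for 45 min. ERα-bound DNA was recovered with the H-20 antibody, and the input had no antibody step. Cells without oestradiol were not analysed here, and the values describe occupancy after the hormone, not a change caused by it. Each kind of library was sequenced as 1 sample, so no value has a replicate error and no test between conditions was possible. The number of reads is unknown from the list, and the copy number of this region in T47D cells was not measured.

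Each peak carries the authors' score, which here ranks peaks within the list only. The list has a lowest score of 50.00, a median of 128.26 and a highest score of 3230.05. Those scoring at least 3100 are termed strong. The list holds 269 strong peaks (2.12%), of which 235 sit at exactly 3100, so they cannot be ranked against one another.

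ERα peaks in the region lay mostly past MYC. Upstream of MYC, over 743.3 kb, 4 peaks were listed, and all 4 were weak. No peak lay at the MYC start. Between the 2 genes there was 1 weak peak, in the PVT1 body there were 16, and in the 286.5 kb past PVT1 there were 8. All 3 strong peaks of the region were in or past PVT1. Over the whole region 19 of 29 peaks (65.5%, Wilson 95% interval 47.4 to 80.1%) reached the median score, as 50.0% of all peaks do, and these 19 also lay in or past PVT1.

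**Figure D1:**
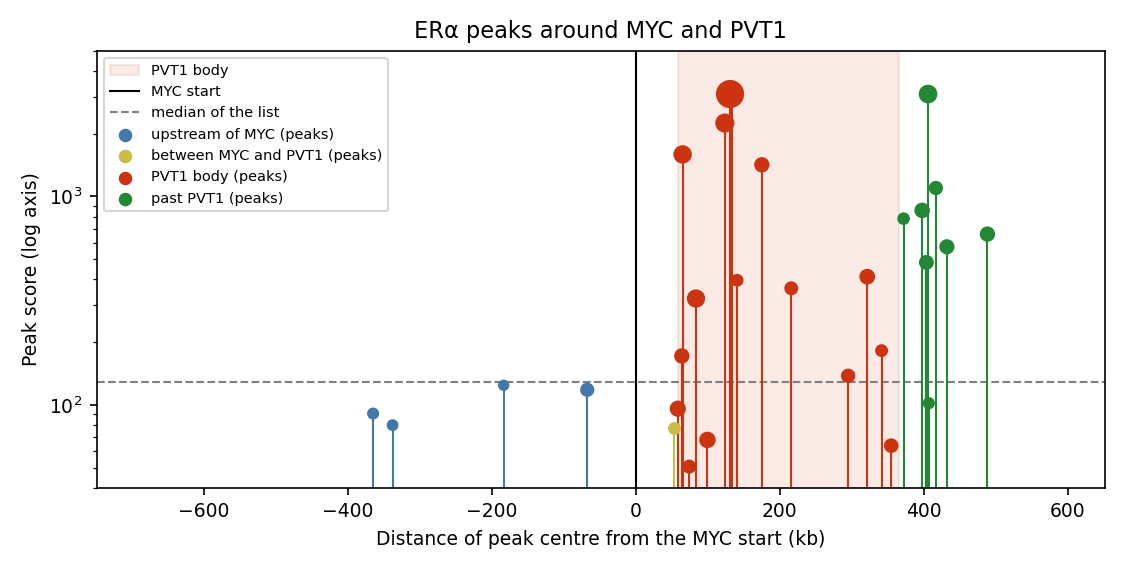
Each ERα peak of the region by the distance of its centre from the MYC start (horizontal axis, kb) and its score (vertical axis, log scale), with point area in proportion to peak width. The 4 peaks upstream of MYC lie under the median of the list (dashed line, 128.26), and 19 of the 24 peaks in the PVT1 body (shaded) or past it lie above it.

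The desert upstream of MYC carried few ERα peaks, and none reached the median score. The first peak ran from 128383297 to 128383752, 364.8 kb before the MYC start, with a score of 90.86 and a width of 456 bp. The second ran from 128410437 to 128410873, 337.7 kb before the start, with a score of 79.95 and a width of 437 bp. The next was at 128564730 to 128565125, 183.4 kb before the start, with a score of 124.19 and a width of 396 bp. These were also the 3 narrowest peaks of the region.

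The nearest peak before MYC lay at 128680647 to 128681324, with its centre 67.3 kb upstream of the start. Its score of 118.14 was the 6681st highest of the list, and its width was 678 bp. Of the 4 upstream peaks it was the widest: 11.85% of the listed peaks with a score within 10% of its own were at least as wide. An oestrogen-responsive enhancer far upstream of MYC has been described in breast cancer cells. Whether this peak is that element was not tested.

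The upstream density was 5.38 peaks per Mb (exact Poisson 95% interval 1.47 to 13.8), against 4.10 per Mb (3.78 to 4.45) on the rest of chromosome 8 and 4.16 per Mb (4.09 to 4.23) on the rest of chromosomes 1 to 22 and X. The interval includes both comparison values, so upstream of MYC the number of peaks could not be told from that of the chromosome at large. Counting error is all that the Poisson and Wilson intervals cover, and neighbouring peaks are not independent. Of the 4 upstream peaks, 0 were at or above the median score (Wilson 95% interval 0 to 49.0%), where the share in the whole list is 50.0%. The last peak before the region, at 127583388 to 127584052 with a score of 102.19, left a stretch of 799.2 kb with no listed peak ahead of the first upstream peak. At the mean density of the list such a stretch would hold 3.33 peaks.

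No ERα peak was listed at the MYC start. Within 5 kb on either side there were 0 peaks, and the same held within 10, 20 and 50 kb. A window of 10.0 kb would hold 0.0416 peaks at the density of the rest of chromosomes 1 to 22 and X, so 0 peaks in it says little about MYC itself. As a density, 0 peaks in this window has an exact Poisson 95% upper limit of 368.9 per Mb. The peak-free stretch around MYC ran from 128681325 to 128800920 and measured 119.6 kb, in which 0.498 peaks would lie at the mean density of the list. A site too weak to enter the list cannot be told from an unbound one.

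The first peak past MYC lay 52.9 kb from its start and 5.59 kb before the PVT1 start. It ran from 128800921 to 128801458, scored 77.64 and was 538 bp wide. It was the only peak between the 2 genes.

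The start of PVT1 was covered by an ERα peak, unlike that of MYC. The peak ran from 128806342 to 128807257 and spanned the first base of the gene, with its centre 0.02 kb inside it. Its score of 95.90 was under the median of the list, but it was 916 bp wide, and 2.65% of the 1058 other peaks of like score were at least as wide. No other peak centre lay within 5 kb of the PVT1 start, whereas 4 lay within 10 kb and 5 within 20 kb. Among the 4 was a high one at 128812893 to 128814120, 6.73 kb inside the gene, with a score of 1591.28 and a width of 1228 bp. A peak of 814 bp and a score of 171.71 ended 0.07 kb before it, and whether the pair is 1 enriched region listed as 2 peaks was not tested.

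The PVT1 body was the densest of the intervals. Its 16 peaks in 306.7 kb gave 52.2 per Mb (exact Poisson 95% interval 29.8 to 84.7). This was 12.6 times (7.17 to 20.4) the density on the rest of chromosomes 1 to 22 and X and 12.7 times that on the rest of chromosome 8. The summed widths of the peaks centred in the gene came to 5.40% of its length. This share was 0.265% upstream of MYC and 0.238% on the rest of chromosomes 1 to 22 and X. Part of the peak at the PVT1 start lies before the gene, so slightly less of the gene itself was covered. The Poisson interval of the PVT1 body lay wholly above that of the desert upstream of MYC. After peaks with edges within 10 kb were merged, the PVT1 body had 9.60 times (4.39 to 18.2) the density of the rest. Upstream of MYC that figure was 1.76 times (0.480 to 4.51), and with merging the 2 intervals overlapped slightly.

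**Figure D2:**
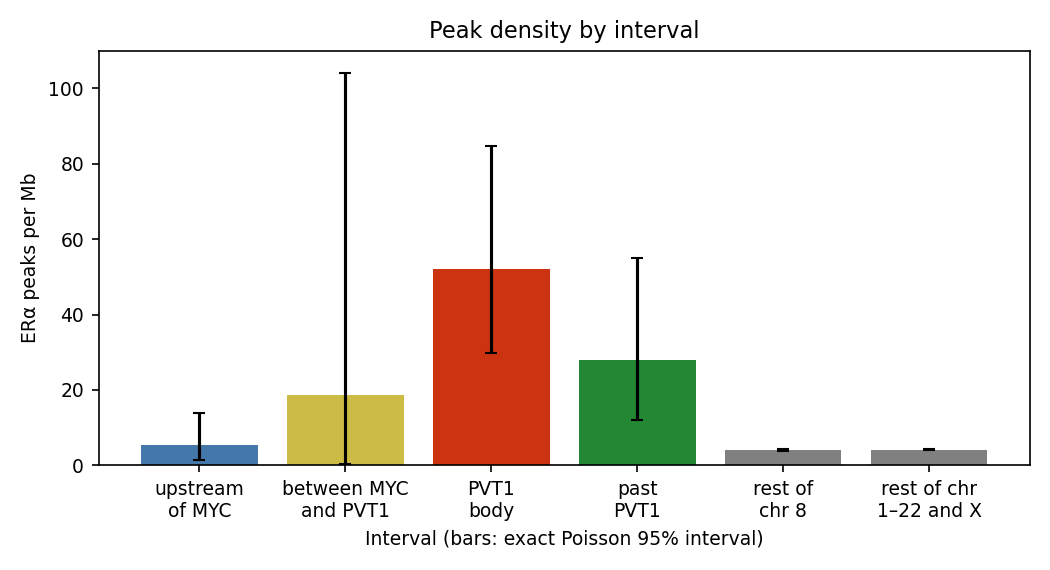
ERα peaks per Mb (vertical axis) in the intervals of the region and on the rest of chromosome 8 and of chromosomes 1 to 22 and X, with exact Poisson 95% intervals as error bars. The PVT1 body (52.2 per Mb) and the stretch past it (27.9 per Mb) stand above the 4.16 per Mb of the rest, and the upstream desert (5.38 per Mb) does not. The MYC start site, with 0 peaks in 10.0 kb, is not drawn.

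The 3 highest peaks of PVT1 sat close together, at 21.3 to 24.8% of the length of the gene. A peak at 128871549 to 128872887, 65.4 kb inside PVT1 and 123.9 kb past the MYC start, scored 2248.89 and was 1339 bp wide. Next came the strong peak at 128877852 to 128880986, at 23.7% of the length of the gene. It was 3135 bp wide, the widest of the region and the 12th widest of all 12688 peaks. The other strong peak of the gene followed 1.01 kb further on, at 128882002 to 128883508, with a width of 1507 bp and its centre 134.4 kb past the MYC start. A lesser peak with a score of 396.28 and a width of 528 bp closed this group at 128888909 to 128889436. The 4 peaks spanned 17.9 kb. The edges of the 2 strong peaks were 1.01 kb apart, and whether they are separate sites was not tested.

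Further into PVT1 the peaks were sparser. The peak at 128923184 to 128923991, 116.8 kb inside the gene, scored 1418.92 and was the fifth of the 5 highest in PVT1. A score of 362.48 was listed at 128964163 to 128964810, followed by 78.3 kb with no peak. Towards its 3′ end the gene had 4 more peaks with scores from 63.74 to 412.12. Split at its midpoint, PVT1 held 11 peaks in the 153.4 kb nearer MYC, or 71.7 per Mb (35.8 to 128.3), and 5 in the 153.4 kb farther from MYC, or 32.6 per Mb (10.6 to 76.1). The 2 intervals overlap. This split was chosen after the values were seen.

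Scores within PVT1 ran from 50.56, close to the lowest score of the list, to 3100, with a median of 343.18. Of the 16 peaks, 12 (75%, Wilson 95% interval 50.5 to 89.8%) reached the median of the list, as 50.0% of all peaks do, and 8 were in the top 25.0% of scores. The 4 peaks under the median scored 50.56, 63.74, 67.92 and 95.90. Of these, 3 lay in the first 13.4% of the gene, with higher peaks between them, and the peak with a score of 63.74 lay 10.2 kb before its end.

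Peaks in the body of PVT1 were wide for their score. Width was compared with that of the listed peaks whose score lay within 10% of the score of the peak in question, a comparison chosen after the values were seen. In PVT1, 15 of 16 peaks were wider than the median peak of like score, as 49.9% of all peaks are. For 9 of the 16 (56.25%, Wilson 95% interval 33.2 to 76.9%), fewer than 10% of the peaks of like score were at least as wide, which holds for 10.0% of all peaks. These 9 are called widest for their score. They included the strong peak of 3135 bp, most of whose peaks of like score sit at exactly 3100 and cannot be ranked by score. They also included all 4 peaks under the median score. The peak at 128847539 to 128848495 scored 67.92 and was 957 bp wide, against a median of 413 bp among peaks of like score. Likewise the lowest peak of the region, at 128822353 to 128823009, scored 50.56 and was 657 bp wide, against a median of 392 bp. The exception was the peak of 528 bp beside the strong pair, for which 67.1% of the peaks of like score were at least as wide. Past PVT1, 6 of 8 peaks (75%) were wider than the median peak of like score, but 0 of 8 (Wilson 95% interval 0 to 32.4%) were widest for their score in this sense, and upstream of MYC 2 of 4 were wider than that median and 0 of 4 (0 to 49.0%) were widest for their score.

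**Figure D3:**
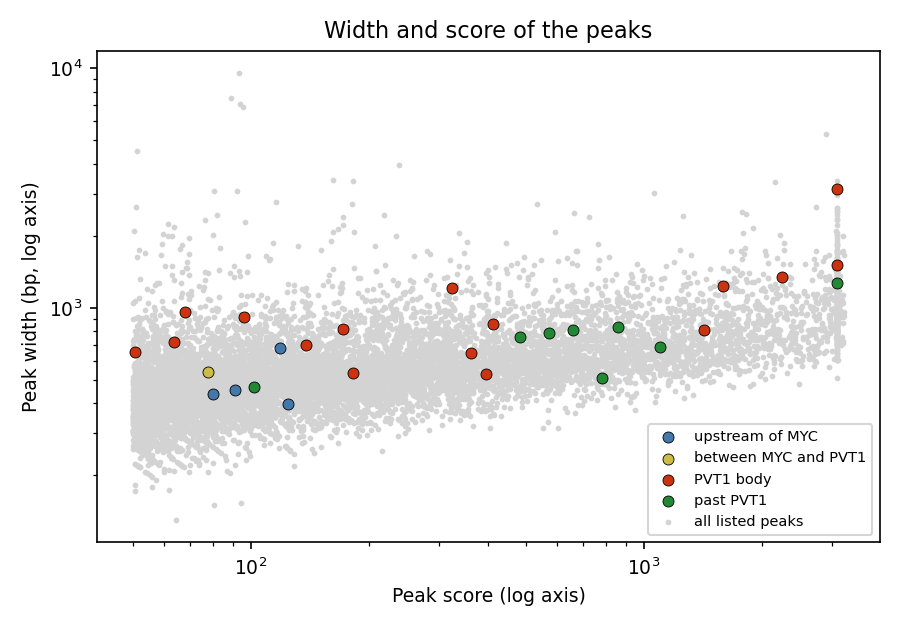
Width (vertical axis, bp, log scale) and score (horizontal axis, log scale) of the 29 peaks of the region, coloured by interval, and of all 12688 listed peaks in grey. Of the 16 peaks of the PVT1 body, 15 are wider than the median peak of like score and 9 are widest for their score. The widest, at 3135 bp, has the score 3100.

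The stretch past PVT1 held fewer peaks than the gene but mostly high ones. Its 8 peaks gave 27.9 per Mb (exact Poisson 95% interval 12.1 to 55.0), an interval that overlaps that of the PVT1 body. This density was 6.72 times (2.90 to 13.2) that on the rest of chromosomes 1 to 22 and X. Scores had a median of 721.08, and 7 of the 8 peaks were in the top 25.0% of scores (87.5%, Wilson 95% interval 52.9 to 97.8%). The first of them lay 7.1 kb past the end of PVT1, at 129120306 to 129120814, with a score of 782.37 and a width of 509 bp.

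The strong peak of this stretch ran from 129153864 to 129155131. It was 1268 bp wide, 41.0 kb past the end of PVT1 and 406.2 kb past the MYC start. Around it, peaks with scores of 857.34, 482.59, 101.91 and 1097.71 completed a group of 5 within 19.9 kb. The peak with a score of 101.91, the only one past PVT1 under the median, began 0.24 kb after the strong peak ended. The last peaks of the region were at 129180317 to 129181104 with a score of 573.37 and at 129236569 to 129237374 with a score of 659.79. After that, 171.7 kb followed without a peak. The next peak, at 129409108 to 129409654 with a score of 92.30, lay 9.4 kb outside the limit of the region.

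Joining peaks with edges within 10 kb turned the 29 peaks into 17 separate places, 14 of them with a single peak. The 3 others were the group at the PVT1 start with 6 peaks over 31.8 kb, the group around the strong pair with 4 over 17.9 kb, and the group past PVT1 with 5 over 19.9 kb. On chromosomes 1 to 22 and X, 79 of 9292 joined places held 6 or more peaks. Places with 5 or more numbered 141, and those with 4 or more 314. In the region, 15 of 29 peaks (51.7%, Wilson 95% interval 34.4 to 68.6%) lay within 10 kb of another by their centres, as 41.4% of all peaks do. By that measure the spacing could not be told from that of listed peaks in general beyond counting error. The median distance to the nearest centre was 9.84 kb in the region and 17.2 kb on the rest of chromosomes 1 to 22 and X. None of the 4 upstream peaks had a neighbour within 10 kb (Wilson 95% interval 0 to 49.0%). In PVT1 56.25% of the peaks (33.2 to 76.9%) had one, and past the gene 62.5% (30.6 to 86.3%). These intervals overlap, and each includes the 41.4% of all peaks.

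Counted in steps of 100 kb from the MYC start, the peaks of the region past it numbered 7, 5, 2, 5 and 6. Beyond 500 kb the region held 0. It ends within the step from 600 to 700 kb, and the next listed peak, 661.1 kb past the MYC start, lay outside it. Before the start the nearest 4 steps held 1, 1, 0 and 2. The 2 strong peaks of PVT1 fell in the step from 100 to 200 kb, and that past the gene in the step from 400 to 500 kb.

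The region as a whole was among the denser parts of the list, and it was chosen with earlier results of these data known. Windows of its own length were laid along chromosomes 1 to 22 and X, 2149 in all, and their median was 4 peaks. Of the other windows, 21 (0.978%) held at least 29 peaks, and the fullest held 76. On chromosome 8 the fullest other window had 33. For the PVT1 body alone, stretches of 306.7 kb that begin at a peak held 16 or more peaks at 46 separate places elsewhere on these chromosomes, and at most 41.

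**Figure D4:**
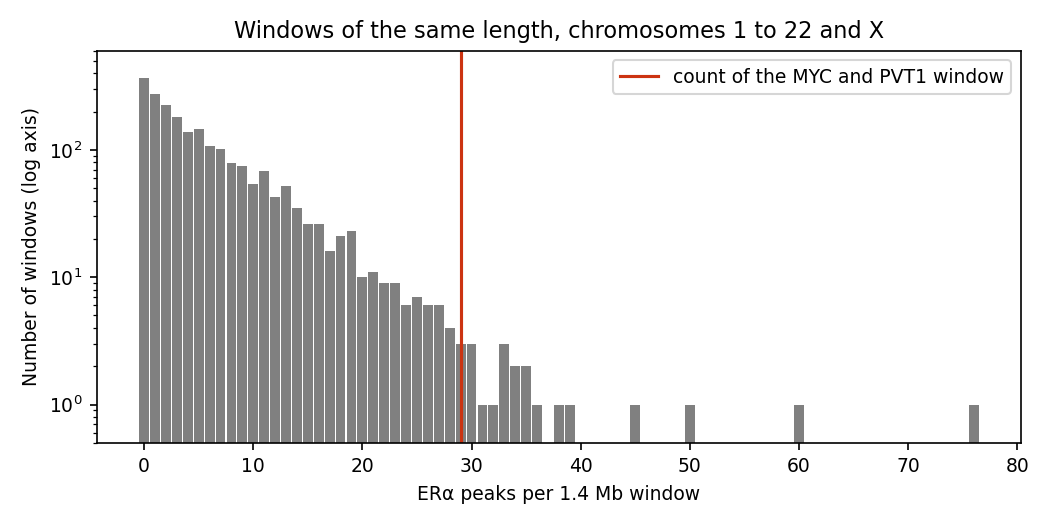
Number of windows (vertical axis, log scale) by ERα peaks per 1.4 Mb window (horizontal axis), for windows laid along chromosomes 1 to 22 and X. The red line marks the 29 peaks of the window with MYC and PVT1, which 21 other windows equal or exceed.

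PVT1 was also set beside those other stretches that were as dense, which hold 957 peaks outside the region. In PVT1 75% of the peaks (Wilson 95% interval 50.5 to 89.8%) reached the median score, against 59.5% (56.3 to 62.5%) in the other dense stretches, and the 2 intervals overlap. Wider than the median peak of like score were 93.75% in PVT1, against 69.4% in the other dense stretches. Widest for their score were 56.25% (33.2 to 76.9%) in PVT1, against 20.9% (18.4 to 23.6%) in the other dense stretches, and these intervals do not overlap. The comparison was chosen after the values were seen, and neighbouring peaks are not independent. It has no test.

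Of the 29 peaks, 3 were strong (10.3%, Wilson 95% interval 3.58 to 26.4%), against 2.12% of all peaks. That interval takes the peaks as independent, although the strong pair in PVT1 had edges 1.01 kb apart and may not be separate sites. The 3 lay within 277.3 kb. Of the 269 strong peaks, 26 (9.67%) had 2 or more other strong peaks within 400 kb, and all 3 of the region were among them. A distance of 400 kb had to count all 3, as they lay within 277.3 kb, so this adds nothing to that span. Within 200 kb, 21 strong peaks had 2 or more others, and 0 of the 3 of the region were among these. Chromosome 8 held 14 strong peaks in all.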

How the data were processed

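One ERα ChIP library and 1 input library of T47D cells gave 1 deposited peak list. Per the file, peaks are named with a MACS prefix. The submitters' processing notes name CASAVA 1.8, Bowtie 0.12.9, HOMER and hg19 with no role or order. Not given in the sources used here are the caller version, its threshold and the handling of duplicate and multiply mapping reads. The deposited score is the authors' value per peak, on a scale that is not stated. Starts, counted from 0 in the list, were raised by 1. No peak ended past an hg19 chromosome end (GenomeInfoDb 1.38.1).

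A peak belonged to the interval that held its centre, and the MYC start site was 5 kb on either side. Gene positions came with the definition of the region, and no exon, intron or sequence was assigned, as no hg19 annotation or genome was used here. Peaks on chromosome 8 are therefore given by position only. Densities have exact Poisson and shares Wilson 95% intervals. Counting, merging and width steps were tested on simulated data.

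Peaks named are all near the 2 gene starts or between the genes, the nearest on each side of MYC, the 5 highest upstream and in PVT1, strong peaks, and those at the limits of the region. Others were named after their values were seen. The region, and so its members, and the measures were chosen with earlier results of these data known. Within the region, position alone decided membership. Alternatives were stricter score limits, merging, any-base overlap, other start windows and other tilings. Tools were SciPy 1.17.1, pandas 2.3.3, NumPy 2.4.6 and matplotlib 3.10.9 under Python 3.11.15.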

Additional observations from a re-analysis of the deposited data

How the results depend on the processing

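Of 54 alternative values, 41 stayed within the interval of the reported value or, for counts without an interval, within 1.5 times of it, and 13 did not. Some of the 41 had little or no room to move. The MYC start site stayed at 0 in every setting, and a share of 0 at the median stays 0 at the upper quartile. Among peaks at or above the median score, the density was 0 upstream of MYC and 0 between the genes. Among the top 25.0% of scores it was also 0 in both, and 25.2 times the rest in the PVT1 body, 23.6 times past PVT1 and 10.35 times in the whole region. Merging within 10 kb left 0 between the genes, since that peak joined the group at the PVT1 start. Peaks at the PVT1 start numbered 4 within 10 kb and 5 within 20 kb, against 1 within 5 kb. With the upper quartile as the limit, 50% of the PVT1 peaks lay above it, by construction fewer. After merging, 100% of the places past PVT1 were at or above the median, and 33 other windows held at least as many as the region, in place of 21. The widths by score band and the distance between strong peaks were varied after seeing the data, and those counts over the region or the list stayed within 1.5 times, although 0 of the 3 strong peaks of the region counted at 200 kb. No paired analysis was possible because the ERα sample and the input are single libraries. Read depth, unknown here, decides how weak a site could be and still be listed, and a single ChIP library leaves each peak without an error.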
